A study of Mus musculus with 13 samples.

Results

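The comparison described is that of RNA bound by P23 with RNA bound by a control antibody in macrophages treated with LPS for 2 h. It rests on 5 of the 13 libraries of the study, 3 P23 immunoprecipitations (IPs) and 2 IPs with an antibody against luciferase (LUC), a protein these cells lack. All 52 RNAs of the deposited table were taken, and 51 of them had reads in the 5 libraries. The cells were RAW 264.7, a mouse macrophage line, and the treated cells received 10 ng/ml of *E. coli* LPS (serotype 0111:B4). Both IPs were made from cytoplasmic extract of UV-crosslinked cells. The libraries of untreated cells (0 h, 3 P23 and 3 LUC IPs) and 1 input of cytoplasmic RNA at each time were used beside them. The authors removed a LUC IP of 2 h as an outlier, so this control group has 2 libraries. The sample labels and the methods name products of different suppliers for the P23 antibody, and whether they are the same clone was not settled here.

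P23, encoded by *Ptges3*, is a co-chaperone of HSP90 that binds its ATP-bound form and steadies complexes of HSP90 with its client proteins. It is also known as the cytosolic prostaglandin E synthase, which makes PGE2 from PGH2, and it has been found among the proteins that crosslink to poly(A) RNA in macrophages. LPS, a cell wall component of Gram-negative bacteria, is sensed by TLR4 and turns on inflammatory genes within hours. In an IP of crosslinked protein, an RNA that is bound is recovered above its recovery with the control antibody, and the ratio of both recoveries is the measure used here.

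The 52 RNAs were chosen by the study as enriched with P23 in untreated cells. The 2 h libraries took no part in that choice, but an RNA that P23 might bind only after LPS is not in the table. Read counts summed over the 52 RNAs ranged from 4064 to 9207 in the 5 libraries and are not library sizes. Levels are given as normalised counts, which are reads divided by 1 size factor per library, recovered from the deposited values. The size factors of the 5 libraries lay between 0.553 and 0.735. Of the 9 macrophage markers listed, the table holds 2, *Tnfrsf11a* among them, both with reads in every library. It holds 0 of the markers of T cells, B cells, fibroblasts and epithelium. Since the RNAs of the table were chosen by enrichment with P23, neither point checks the labelled cell type.

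P23 replicates 2 and 3 of 2 h agreed within sampling noise (chi-square 52.6 on 50 degrees of freedom, p = 0.374 over 51 RNAs), as did replicates 2 and 3 of 0 h (chi-square 53.8 on 51 degrees of freedom, p = 0.366), whereas the other pairs within these groups differed. Both are labelled as independent biological replicates. They were counted as 1 sample in each mean ± SD, so n = 2 for P23 and n = 2 for LUC in these means. The fits entered them as separate libraries, so each fold change, SE and adjusted p takes them as independent unless summed reads are named. If they are not independent, these SEs and adjusted p-values are too small. Each call at 2 h is also given with their reads summed, but the change from 0 h is not. P23 replicate 1 had the lowest normalised count of the 3 P23 libraries for 33 of 51 RNAs.

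After 2 h of LPS, P23 recovered 4 RNAs above the control antibody and 1 below it (edgeR quasi-likelihood test, Benjamini-Hochberg adjusted p of 0.05 or less). These are 7.84% and 1.96% of the 51 RNAs. The lists below are small, and 0 or 1 call in a list is not read as a result about that list. The higher ones were the kinesin mRNAs *Kif15* and *Kif1b*, the scaffold mRNA *Dlg4* and the enzyme mRNA *Isoc2a*, and the lower one was the transcription factor mRNA *E2f5*. With its independent filtering switched off, DESeq2 called the same 5 RNAs and also *Ptges3*, *Fhl3*, *Nudt3*, *Gm12693*, *Tnfrsf11a* and *B4galt5* as higher. With its default filtering DESeq2 called 10 higher and 0 lower. That filter left 25 RNAs of low mean count without an adjusted p. *E2f5* and *Dlg4* were among them, so they were left out there and did not fail a test. In edgeR the other 46 RNAs did not pass the test, although 49 of the 51 fold changes were above 0. The median log2 fold change over the 51 RNAs was 0.40, a ratio of 1.32. Without adjustment, 23 RNAs had p under 0.05 in the higher direction (45.1%) and 1 in the lower (1.96%). On the deposited scale, all 3 P23 libraries were above both LUC libraries for 33 RNAs (64.7%) and below both for 1 (1.96%).

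The general shift toward P23 depends on the library scale. With size factors computed from the 52 RNAs themselves by TMM, the median log2 fold change was -0.07, and with an equal sum of counts over the table it was -0.25. Such scales remove by construction a shift that these RNAs share, and the RNAs were chosen by enrichment with P23. An equal sum also weighs abundant RNAs more, *Kif15* among them. These medians therefore cannot decide whether the shift on the deposited scale is real. Changes of RNAs near the median therefore have no settled sign. Where groups are described below as apart, above each other or not overlapping, this refers to the deposited scale. *Kif15*, *Kif1b*, *Dlg4* and *Isoc2a* stayed above 0 and *E2f5* stayed below 0 on all 5 scales. With the reads of P23 replicates 2 and 3 summed, only *Kif15* and *Kif1b* were called higher and *E2f5* lower.

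**Figure D1:**
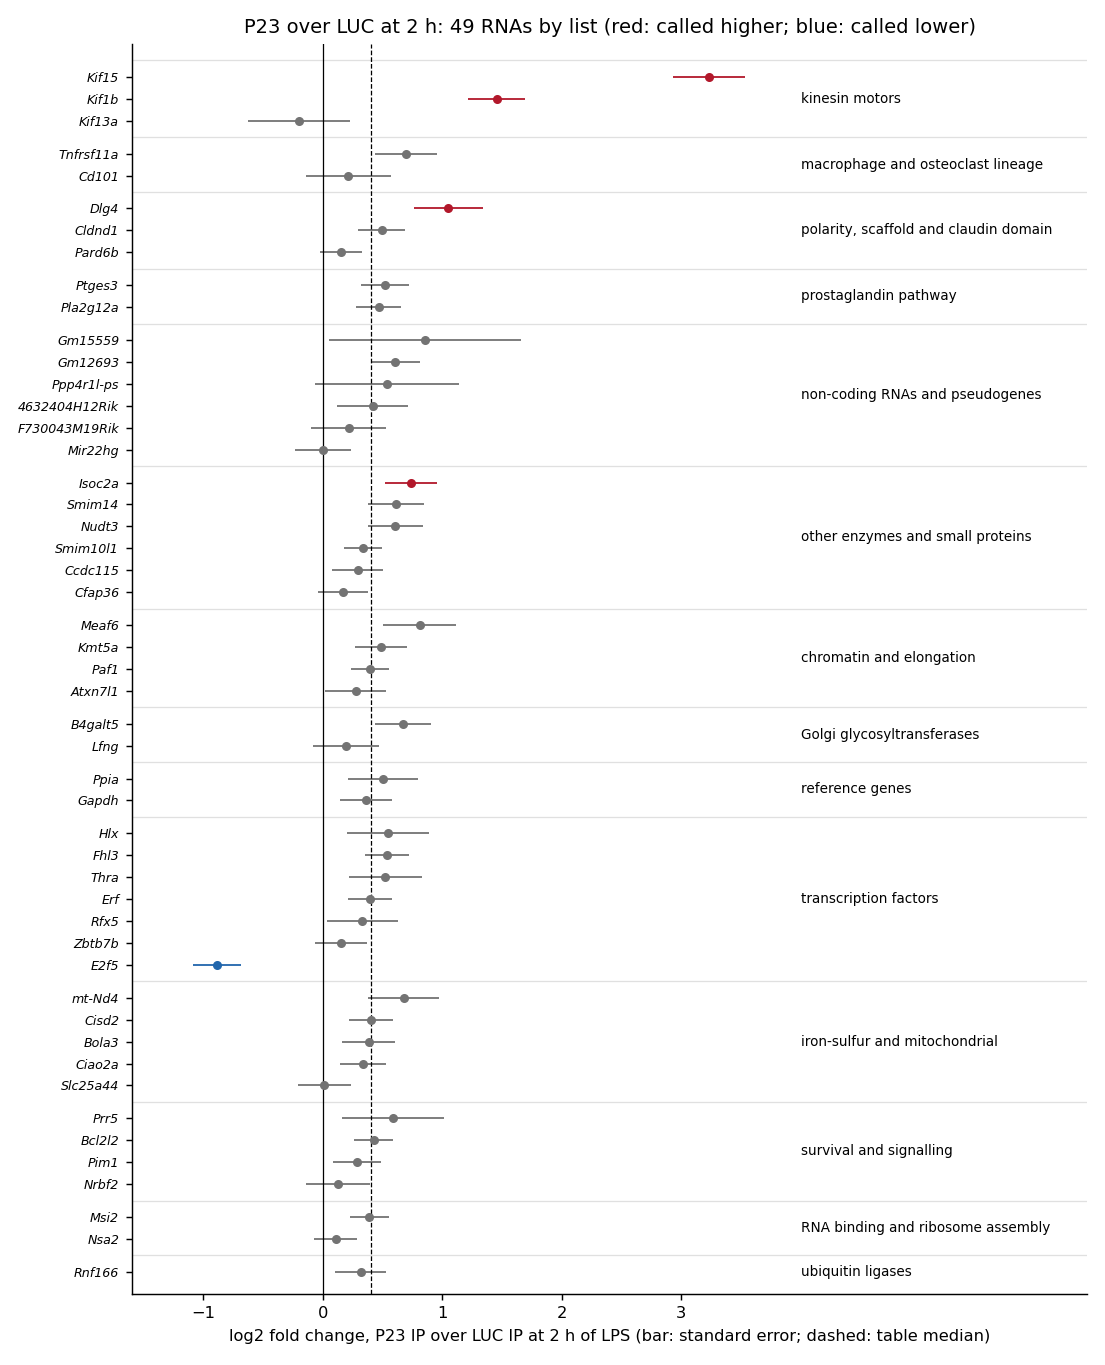
log2 fold change of the P23 IP over the LUC IP at 2 h of LPS for 49 of the 51 RNAs (x axis), grouped by list, with bars of 1 standard error. *Kif15* (3.23) and *Kif1b* (1.45) stand right of the other RNAs, *E2f5* (-0.88) stands left of them, and the dashed line marks the median of 0.40.

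The study looked at U/G-rich stretches in the 3′UTRs of its P23-bound mRNAs. For 4 of the 5 RNAs called at 2 h and for the other kinesin, the window of 30 nt with the most hexamers made only of U and G is shown, since the 3′UTR carries the sequence feature that the rule of choice did not use. The windows were read on the mRNA strand from RefSeq 3′UTRs of GRCm38.p6, taking the RefSeq mRNA with the longest 3′UTR per gene. Capitals mark bases in runs of at least 6 that are only U or G.
Kif15, chr9:123018411-123018440 (+): uauuuuaUUUUUUUUUUUUUUGGUUUUUUG
Kif1b, chr4:149177321-149177350 (-): ccaGGGGGGUGUGGUUUGUUUagcGUGGGU
Kif13a, chr13:46749594-46749623 (-): uucucUUGUGGUGUGGGUUUGcUGUUUUUG
Dlg4, chr11:70045195-70045224 (+): aGGUGGUUUUUGGGGGGagaagcaGGGGGG
E2f5, chr3:14605869-14605898 (+): uugaaagggcucugccugcuucUGGGGGGU

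The capitals of the *Kif15* window are a run of U broken by a pair of G and closed by a G, and those of *Kif1b*, *Kif13a* and *Dlg4* mix both bases. The *Kif15* window held 18 hexamers of the 25 that fit in 30 nt, and 13.6% of the 3′UTRs of 19345 RefSeq genes had a window at least as rich. The *Kif1b* and *Kif13a* windows held 14 hexamers each, reached by 20.2% of 3′UTRs, and the *Dlg4* window held 12, reached by 26.2%. In *E2f5* the richest window held 3, which 82.7% of 3′UTRs reached. The median over the 44 mRNAs of the table was 14 hexamers, against 7 over the RefSeq genes. Windows as rich as those of *Kif1b* and *Kif13a* were therefore common in the table, and some mRNAs not called at 2 h, such as *Pim1* and *Meaf6*, held 25. A longer 3′UTR offers more windows, so the richest one can rise with length alone. The median 3′UTR had 1441 nt in the table and 828 nt over the RefSeq genes.

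Kinesins move cargo along microtubules with the energy of ATP. *Kif15* (ENSMUSG00000036768, chromosome 9, 122951046 to 123018733 in GRCm38) encodes the kinesin-12 motor of the mitotic spindle, and its mRNA gave the largest ratio of the table. Its normalised count was 1174, 1759 and 1746 in the P23 IPs and 219 and 118 in the LUC IPs. The groups were far apart, since the lowest P23 library was 5.37 times the highest LUC library. The means were 1464 ± 409 (SD, n = 2) for P23 against 168 ± 71.4 (SD, n = 2) for the control. The log2 fold change was 3.23 ± 0.30 (SE), a 9.38-fold ratio, with an adjusted p of 2.48e-07 in edgeR. The input held 236 normalised counts, so *Kif15* was 6.20 times the input with P23 and 0.713 times the input with LUC. In all 23 other ways of fitting *Kif15* passed the test, with log2 fold changes from 2.58 to 3.73.

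*Kif1b* (ENSMUSG00000063077, chromosome 4, 149176319 to 149307693) encodes a kinesin-3 motor that carries mitochondria and vesicle precursors along axons. The P23 IPs held 198, 337 and 321 normalised counts and the LUC IPs 130 and 81.3. The groups did not overlap, and P23 replicate 1 was closer to LUC replicate 1 than to the other P23 libraries. The means were 263 ± 93.1 (SD, n = 2) and 106 ± 34.5 (SD, n = 2), and the log2 fold change was 1.45 ± 0.24 (SE, edgeR, adjusted p = 0.000333). *Kif1b* passed the test in all 23 other ways of fitting, with log2 fold changes from 0.80 to 1.81. Its highest adjusted p, 0.0352, was reached without LUC replicate 2.

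*Kif13a* (ENSMUSG00000021375, chromosome 13, 46749087 to 46929867) encodes another kinesin-3 motor, which moves endosomal cargo. It held 9.56, 15.0 and 10.2 normalised counts in the P23 IPs and 19.9 and 8.41 in the LUC IPs, from 6 to 11 reads per library. The groups overlapped, and the LUC replicates bracketed all 3 P23 libraries. The log2 fold change was -0.20 ± 0.43 (SE, edgeR, adjusted p = 0.710), with an interval of 95% from -1.04 to 0.63 by the normal approximation.

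**Figure D2:**
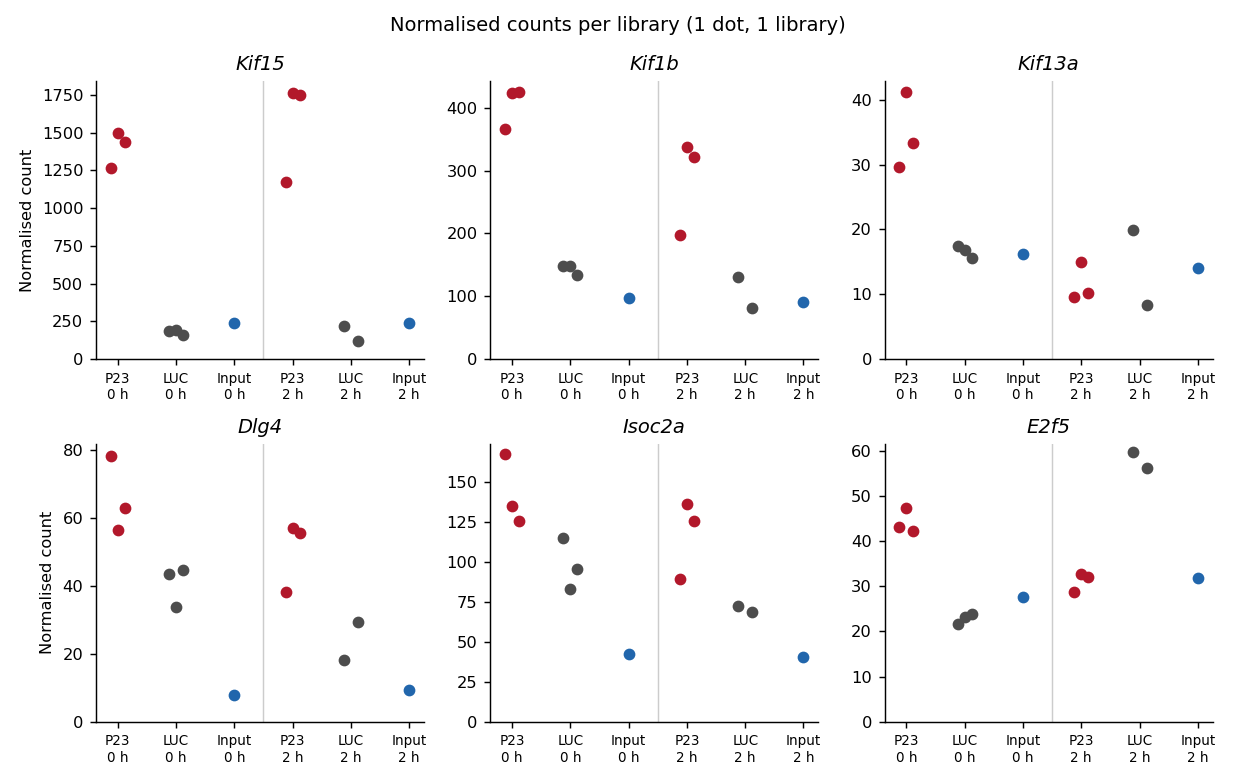
Normalised count (y axis, from 0) of 6 RNAs in every library, 1 dot per library, for P23 IPs, LUC IPs and inputs at 0 h (left of the line) and 2 h of LPS (right). *Kif15* and *Kif1b* are higher with P23 at both times, *Kif13a* overlaps between the antibodies at 2 h, and for *E2f5* the LUC IPs stand at 23.9 or less at 0 h and at 56.1 and 59.7 at 2 h.

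Proteins of cell polarity and membrane scaffolds gave 1 call among 3 members, in the higher direction, against 4 of 51 RNAs over the table (7.84%). *Dlg4* (ENSMUSG00000020886, chromosome 11, 70016942 to 70047522), which encodes the scaffold PSD-95, held 38.2, 57.2 and 55.4 normalised counts with P23 and 18.1 and 29.4 with LUC. The groups did not overlap, but the LUC values came from 10 and 21 reads. Means were 47.3 ± 12.8 (SD, n = 2) and 23.8 ± 8.04 (SD, n = 2), and the log2 fold change was 1.05 ± 0.29 (SE, edgeR, adjusted p = 0.0251). The call did not hold without P23 replicate 2 (adjusted p = 0.118), P23 replicate 3 (0.0963) or LUC replicate 1 (0.182), with P23 replicates 2 and 3 summed (0.0568), or with TMM over the table (log2 fold change 0.57, adjusted p = 0.299). In the input *Dlg4* held 9.38 normalised counts, fewer than in any IP.

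The other members of this list did not pass the test. *Cldnd1*, which encodes a claudin domain protein of the membrane, had a log2 fold change of 0.49 ± 0.20 (SE) without overlap between the groups. *Pard6b*, which encodes a subunit of the PAR polarity complex, had 0.15 ± 0.18 (SE). Its values of 79.7, 83.0 and 71.5 with P23 and 68.7 and 71.5 with LUC touched each other.

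Of 6 mRNAs for other enzymes and small proteins, 1 was called higher and 0 lower, against 7.84% and 1.96% of the 51 RNAs over the table. On the deposited scale the groups did not overlap in 6, against 33 of 51 over the table (64.7%), and in *Cfap36* they were level after rounding. *Isoc2a* (ENSMUSG00000086784, chromosome 7, 4877153 to 4896973), which encodes an isochorismatase domain protein, held 89.2, 136 and 125 normalised counts with P23 and 72.3 and 68.7 with LUC. The LUC libraries were close together and all P23 libraries lay above them. Means were 110.0 ± 29.4 (SD, n = 2) and 70.5 ± 2.55 (SD, n = 2), with a log2 fold change of 0.74 ± 0.22 (SE, edgeR, adjusted p = 0.0359). This call was lost without P23 replicate 2 (adjusted p = 0.179), P23 replicate 3 (0.125), LUC replicate 1 (0.150), LUC replicate 2 (0.225) or LUC replicate 3 of 0 h (0.0589), with P23 replicates 2 and 3 summed (0.11), in limma on the variance-stabilised values (0.0602), and with TMM over the table (log2 fold change 0.27, adjusted p = 0.561).

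In the same list, *Smim14*, which encodes a small membrane protein, held 51.0, 72.1 and 54.0 normalised counts with P23 and 43.4 and 35.1 with LUC. Its log2 fold change was 0.61 ± 0.24 (SE, edgeR, adjusted p = 0.0738). *Nudt3*, which encodes a phosphohydrolase of inositol pyrophosphates, had 0.61 ± 0.23 (SE) on the same scale. The smallest value of the list was that of *Cfap36*, a gene of cilia, with a log2 fold change of 0.17 ± 0.21 (SE). Its lowest P23 library (91.2) and highest LUC library (91.2) were level.

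Among 7 mRNAs for transcription factors, 1 was called lower and 0 higher, against 1.96% and 7.84% of the 51 RNAs over the table. *E2f5* (ENSMUSG00000027552, chromosome 3, 14578641 to 14606309) encodes an E2F family member that works mainly as a repressor with the pocket protein p130. It held 28.7, 32.7 and 32.1 normalised counts with P23 and 59.7 and 56.1 with LUC. All 3 P23 libraries were below both LUC libraries, and the replicates of each antibody were close. Means were 30.5 ± 2.61 (SD, n = 2) and 57.9 ± 2.53 (SD, n = 2), and the log2 fold change was -0.88 ± 0.20 (SE, edgeR, adjusted p = 0.0065). The 23 other ways of fitting leave out DESeq2 with its default filtering, which gave *E2f5* no adjusted p. Of these 23, 22 kept the call. It was lost without LUC replicate 1, where the log2 fold change was -0.84 and the adjusted p 0.083.

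The input held 31.8 normalised counts of *E2f5*, at the level of the P23 IPs, and the LUC IPs stood at 1.82 times the input. The values rest on 18 to 40 reads per IP library. *E2f5* overlaps 1810022K09Rik on the opposite strand in 26 of its 1782 exon bases (1.46%), and reads were counted without regard to strand, so reads from these bases cannot be assigned.

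The other transcription factors did not pass the test. *Hlx*, a homeobox gene, had the highest value of the list, a log2 fold change of 0.54 ± 0.34 (SE), from 25.5, 21.8 and 18.96 normalised counts with P23 and 18.1 and 12.6 with LUC. *Fhl3*, which encodes a LIM domain cofactor, had 0.54 ± 0.18 (SE, edgeR, adjusted p = 0.0668) with the groups apart. *Thra*, *Erf*, *Rfx5* and *Zbtb7b* had log2 fold changes between 0.15 and 0.52. *Thra* encodes a thyroid hormone receptor, *Erf* an ETS repressor, *Rfx5* a regulator of MHC class II genes and *Zbtb7b* a zinc finger factor of T helper cells.

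For the 3 genes of the macrophage and osteoclast lineage, 0 were called. *Tnfrsf11a* encodes RANK, the receptor through which RANKL drives osteoclast formation. It held 1147, 1576 and 1526 normalised counts in the P23 IPs and 808 and 940 in the LUC IPs. On the deposited scale all P23 libraries were above the LUC libraries, with a log2 fold change of 0.70 ± 0.26 (SE, edgeR, adjusted p = 0.0738). Against 86.9 in the input, *Tnfrsf11a* was 15.5 times the input with P23 and 10.1 times with the control antibody. *Cd101*, which encodes an immunoglobulin-type surface protein, had 0.21 ± 0.36 (SE) with overlapping groups (41.4, 32.7 and 24.8 with P23, 19.9 and 35.1 with LUC).

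Of 8 genes listed for prostaglandin synthesis the table holds 2, and of 8 HSP90 chaperone genes it holds 1, *Ptges3*. The mRNA of P23 itself, *Ptges3* (ENSMUSG00000071072, chromosome 10, 128058954 to 128077272), held 534, 581 and 576 normalised counts in the P23 IPs and 385 and 402 in the LUC IPs. The groups did not overlap and the replicates lay close together, with means of 556 ± 31.7 (SD, n = 2) and 394 ± 12.3 (SD, n = 2). The log2 fold change was 0.52 ± 0.20 (SE, edgeR, adjusted p = 0.0738), and the P23 IP stood at 3.23 times the input. *Pla2g12a*, which encodes a secreted phospholipase A2, held 104, 131 and 128 with P23 and 103 and 74.3 with LUC. P23 replicate 1 and LUC replicate 1 were level, and the log2 fold change was 0.47 ± 0.19 (SE, edgeR, adjusted p = 0.0738).

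Neither of the 2 Golgi glycosyltransferase mRNAs was called. *B4galt5*, which encodes a galactosyltransferase of lactosylceramide synthesis, held 322, 494 and 471 normalised counts with P23 and 262 and 278 with LUC. The groups were apart, with a log2 fold change of 0.67 ± 0.24 (SE, edgeR, adjusted p = 0.0738). *Lfng*, which encodes the Fringe enzyme that modifies Notch receptors, had 31.9, 29.9 and 30.6 with P23 and 28.9 and 25.2 with LUC, a log2 fold change of 0.19 ± 0.28 (SE).

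The 5 genes of iron-sulfur clusters and mitochondria gave 0 calls and a median log2 fold change of 0.38. *mt-Nd4*, a mitochondrially encoded subunit of complex I, held 432, 482 and 588 normalised counts with P23 and 307 and 318 with LUC, without overlap. Its log2 fold change was 0.68 ± 0.30 (SE, edgeR, adjusted p = 0.0991). *Slc25a44*, which encodes a mitochondrial carrier of branched-chain amino acids, had the lowest value, 0.01 ± 0.23 (SE). The P23 values of 68.5, 81.6 and 77.3 and the LUC values of 81.4 and 70.1 covered the same range. *Cisd2* (0.40), *Bola3* (0.38) and *Ciao2a* (0.34) lay between them on the log2 scale.

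For the 4 genes of chromatin and transcription elongation the median log2 fold change was 0.44, with 0 calls. *Meaf6*, which encodes a subunit of MYST histone acetyltransferase complexes, held 52.6, 77.6 and 72.9 normalised counts with P23 and 39.8 and 37.9 with LUC. On the deposited scale the P23 libraries were all higher, and the log2 fold change was 0.81 ± 0.31 (SE, edgeR, adjusted p = 0.0738). *Atxn7l1*, an ataxin-7-like gene, overlapped between the groups (39.8, 51.7 and 61.3 with P23, 56.1 and 30.9 with LUC) and had 0.27 ± 0.26 (SE). The histone H4 methyltransferase gene *Kmt5a* and *Paf1*, which encodes a subunit of an elongation complex, had log2 fold changes of 0.49 and 0.39.

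The 4 genes of survival and signalling had 0 calls. *Prr5*, which encodes a subunit of mTORC2, gave the highest log2 fold change of the list at 0.59 ± 0.42 (SE), from 17.5, 27.2 and 36.5 normalised counts with P23 and 14.5 and 21.04 with LUC, which overlap. *Nrbf2*, which encodes an autophagy regulator, gave the lowest at 0.13 ± 0.26 (SE), with 47.8, 32.7 and 29.2 against 34.4 and 32.3. *Pim1*, a kinase gene and the 1 member among 10 LPS response genes listed, held 556, 757 and 778 with P23 and 591 and 554 with LUC. Its P23 replicate 1 fell between the LUC libraries, and the log2 fold change was 0.29 ± 0.20 (SE, edgeR, adjusted p = 0.285). Its input held 23.3 normalised counts at 0 h and 507 at 2 h. *Bcl2l2*, an anti-apoptotic BCL2 relative, had 0.43 ± 0.16 (SE, edgeR, adjusted p = 0.0738).

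RNA binding and ribosome assembly (*Msi2* and *Nsa2*) and ubiquitin ligases (*Rnf166* and 1 other) gave 0 calls each. *Msi2*, which encodes the translational regulator Musashi-2, held 308, 303 and 266 normalised counts with P23 and 212 and 234 with LUC, with a log2 fold change of 0.39 ± 0.16 (SE, edgeR, adjusted p = 0.0846). *Nsa2*, a factor of large ribosomal subunit assembly, held 94.0, 120 and 99.2 against 97.6 and 96.8, with 0.11 ± 0.18 (SE). The P23 libraries of *Nsa2* lay on both sides of the LUC libraries. *Rnf166* had a log2 fold change of 0.32 ± 0.21 (SE).

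The reference genes are in the table because the study called them enriched at 0 h. *Ppia*, which encodes cyclophilin A, held 57.4, 54.4 and 58.4 normalised counts with P23 and 30.7 and 47.7 with LUC. The groups did not overlap, and the LUC libraries were far apart from each other, with a log2 fold change of 0.50 ± 0.29 (SE, edgeR, adjusted p = 0.198). *Gapdh*, which encodes a glycolytic enzyme, held 94.0, 122 and 90.4 against 66.9 and 91.2, which overlap, with 0.36 ± 0.22 (SE, edgeR, adjusted p = 0.207). Both genes have many pseudogene copies, so their unique read counts can miss reads.

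Of the 7 non-coding RNAs and pseudogenes, 6 had reads at 2 h and 0 were called. *Gm12693*, a processed pseudogene whose reads may be shared with its parent gene, held 250.2, 287 and 295 normalised counts with P23 and 199 and 167 with LUC. The groups were apart, with a log2 fold change of 0.61 ± 0.20 (SE, edgeR, adjusted p = 0.0668). *Mir22hg*, the host transcript of miR-22, held 63.7, 57.2 and 48.1 against 59.7 and 53.3. These values interleaved, and its log2 fold change rounded to 0 with an SE of 0.23. *Gm15559* had the highest log2 fold change of the list, 0.86 ± 0.80 (SE), on fewer than 10 normalised counts in any library (3.19, 8.16 and 5.84 against 1.81 and 4.21). *Gm16153* had 0 reads in all 5 libraries. A count of 0 allows up to 3 reads per library, which correspond to between 4.08 and 5.42 normalised counts, and no ratio was taken.

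The 2 h input set both IPs against the RNA content of the extract. It is a single library, and both ratios share it, so points for a gene move together with any error of the input. On the deposited size factors, 37 of the 51 RNAs were above the input in both IPs, 4 were below it in both, and 8 were above it with P23 and below it with LUC. The median log2 ratio to the input was 0.81 with P23 and 0.50 with LUC. The largest recoveries over the input were thus seen with both antibodies, as for *Tnfrsf11a* and for *Bcl2l2*, which was 12.5 times the input with P23 and 9.43 times with LUC. *Paf1* was below the input with both, at 0.662 and 0.517 times. *Kif15* was the RNA of the 8 with the widest gap, since *Meaf6*, *Nudt3*, *Rnf166*, *Ccdc115*, *Smim14*, *Rfx5* and *Pla2g12a* stood between 1.09 and 1.35 times the input with P23 and between 0.736 and 0.928 times with LUC. These counts depend on the scale, and centring on the median splits the RNAs about evenly by construction. With each IP set relative to its own median ratio over the table, 21 RNAs were above in both IPs and 22 below in both, and the P23 value was above for 1 of the 8 RNAs and below for 7. The 1 was *Kif15*, at a log2 ratio of 1.82 with P23 and -0.98 with LUC.

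**Figure D3:**
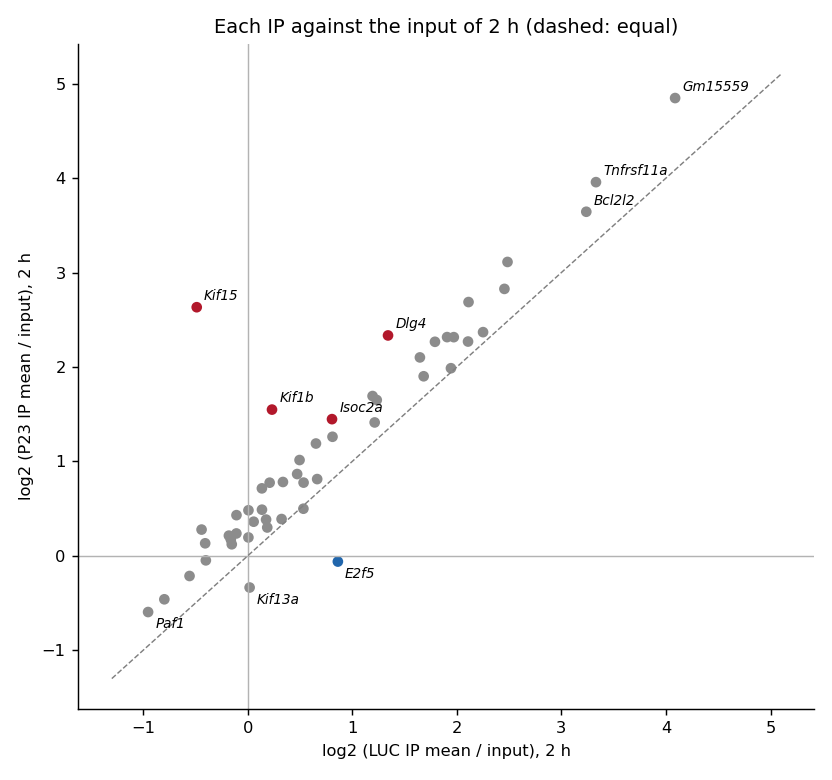
log2 ratio of the mean normalised count to the single input at 2 h, for the LUC IP (x axis) and the P23 IP (y axis), 1 dot per RNA for 51 RNAs, red for called higher and blue for called lower. *Kif15* lies left of 0 for LUC (0.713 times) and far above it for P23 (6.20 times), whereas most RNAs run just above the dashed line of equal ratios.

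The ratio of P23 to LUC was set against that of untreated cells with the interaction term of the same fit. The 0 h libraries chose the 52 RNAs, so the 0 h ratio is a value from the choosing contrast and a smaller ratio at 2 h is what such a choice favours. The median log2 fold change of the 51 RNAs was 0.66 at 0 h and 0.40 at 2 h, and the change was below 0 for 41 RNAs and above 0 for 10. With edgeR 0 RNAs passed the test of the change in the higher direction (0 at unadjusted p under 0.05, and 0 in DESeq2 and limma) and 1 in the lower (1.96%, with 5 or 9.8% at unadjusted p under 0.05). The kinesin ratios of *Kif15* and *Kif1b* changed by 0.26 ± 0.37 and -0.05 ± 0.31 (SE) on the log2 scale, neither past the test. For *Kif13a* the change was -1.29 ± 0.51 (SE, edgeR, adjusted p = 0.282). It held 29.7, 41.3 and 33.4 normalised counts in the P23 IPs of 0 h and between 9.56 and 15.0 in those of 2 h.

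The change that passed the test was that of *E2f5*, at -1.81 ± 0.27 (SE, edgeR, adjusted p = 0.000221). In untreated cells it held 43.2, 47.3 and 42.2 normalised counts with P23 and 21.7, 23.3 and 23.9 with LUC, the reverse order of 2 h. The P23 values were lower at 2 h than at 0 h and the LUC values were higher, without overlap in either case, and these steps within 1 antibody were not tested on their own. The input held 27.5 at 0 h and 31.8 at 2 h.

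Over the table, 3′UTRs and ratios were compared for the 44 mRNAs with a RefSeq 3′UTR. The 8 RNAs without one were the 7 non-coding RNAs and pseudogenes and *mt-Nd4*. The median density of U/G-only hexamers (6 consecutive bases that are each U or G, mRNA strand, overlapping matches counted) was 38.3 per kb in these mRNAs and 28.8 per kb over 19345 RefSeq genes. In the 4 mRNAs called higher at 2 h it was 62.6 per kb. Of these, *Dlg4* and *Isoc2a* lost the call with P23 replicates 2 and 3 summed, and *Kif1b* lay below the 38.3 of the table. *Isoc2a* had 126 per kb in a 3′UTR of 317 nt, a density that 0.667% of RefSeq 3′UTRs reached. *Kif15* had 64.4 per kb in 606 nt (reached by 6.01%), *Dlg4* 60.9 in 837 nt (7.25%) and *Kif1b* 35.3 in 4449 nt (34.5%). *E2f5* had 22.0 per kb in 592 nt, which 67.1% reached.

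Density and ratio did not go together for every mRNA. *Pim1* had 95.3 hexamers per kb at a log2 fold change of 0.29, *Lfng* had 84.0 at 0.19, and *Kif13a* had 42.8, above *Kif1b*, at -0.20. *Gapdh* and *Cfap36* had 0 such hexamers. Spearman's rho between density and log2 fold change was 0.38 over the 44 mRNAs and 0.36 without *Kif15*, and Pearson's r was 0.27 and 0.28. These describe mRNAs that share the same 5 libraries and were chosen at 0 h, and they are not a test. The length of the 3′UTR gave a Spearman's rho of 0.09, and 0.14 without *Kif15*. Its Pearson's r was 0.08, and 0.30 without *Kif15*, which is close to that of density.

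**Figure D4:**
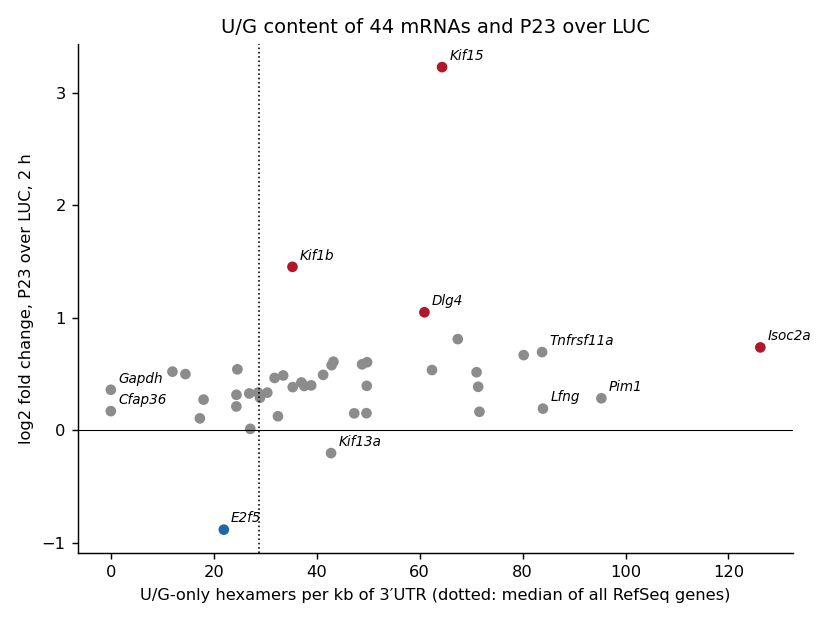
U/G-only hexamers per kb of 3′UTR (x axis) against the log2 fold change of P23 over LUC at 2 h (y axis) for 44 mRNAs, red for called higher and blue for called lower. The dotted line is the median of RefSeq 3′UTRs (28.8), and *Pim1* and *Lfng* lie far to the right at low ratios while *Isoc2a* has the highest density (126).

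**Figure D5:**
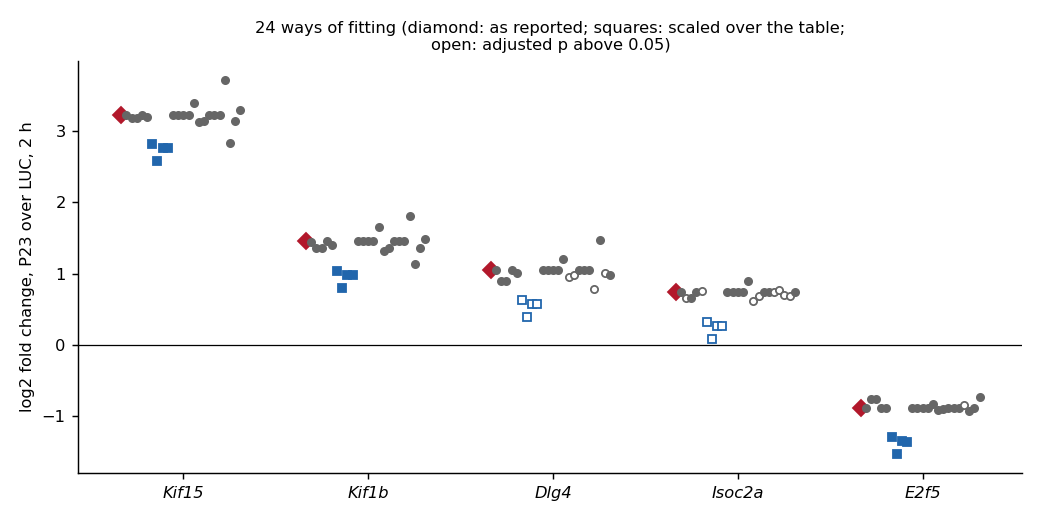
log2 fold change of P23 over LUC at 2 h (y axis) of the 5 called RNAs under 24 ways of fitting, with a diamond for the reported fit, squares for scales computed over the table and open symbols where the adjusted p was above 0.05. *Kif15* (2.58 to 3.73) and *Kif1b* (0.80 to 1.81) are filled throughout, whereas *Dlg4* and *Isoc2a* are open at all 4 squares.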

How the data were processed

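Sequenced were the RNAs of both IPs and of the inputs. For the deposited raw counts, the authors trimmed reads (Trimmomatic 0.33), aligned them to GRCm38 (TopHat2 2.0.14) and assigned unique reads to genes ignoring strand (HTSeq 0.6.1). The authors also deposited variance-stabilised log2 values, whose tool is not given in the sources used here, and size factors were solved from them. The deposited log2 fold changes and p-values of the authors' own comparisons were not used.

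All 11 IP libraries entered 1 edgeR 4.0.16 fit (R 4.3.3) with 4 group means, preset size factors and p-values adjusted by Benjamini-Hochberg across all 52. An SE is the log2 fold change divided by the square root of F. Alternatives used DESeq2 1.42.0 without independent filtering, limma 3.58.1, other scales, a filter at a mean normalised count of 20, and fits without each library. In data simulated for the 2 h comparison (52 genes), log2 changes of 0.5 and 1 were called for 34.3% and 82.9% of genes and unchanged genes for 1.77%. The simulation gave every gene the same dispersion, took all replicates as independent and moved a minority of genes in both directions. The real libraries differ in the close agreement of some P23 replicates and in the shared shift, so these rates may not hold for them. The members and lists were chosen with earlier results of these data known. Named RNAs are those called at 2 h, the 10 highest and 5 lowest log2 fold changes at a mean of at least 20, the kinesins, *Ptges3*, *Gapdh*, *Ppia*, and the highest and lowest of each list. The values of 2 RNAs and 1 sequence window are not reported here. The identifier listed as Pard6a is *Pard6b* in GENCODE M21.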

Additional observations from a re-analysis of the deposited data

Results flagged for a closer look

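*E2f5* was singled out because its P23 over LUC ratio differed between the time points in the interaction test. The change from 0 h to 2 h was -1.81 on the log2 scale (SE 0.27, edgeR, adjusted p = 0.000221). The ratio was above 0 at 0 h (log2 0.93), where the study chose the RNA, and below 0 at 2 h (-0.88). All 3 P23 libraries of 2 h were below all 3 of 0 h, and both LUC libraries of 2 h were above all 3 of 0 h. The part of the opposite-strand overlap in this result was not tested. No group of the comparison had 4 libraries, so single libraries were not tested as outliers.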

How the results depend on the processing

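Beside the 4 RNAs higher and 1 lower at 2 h, DESeq2 called 10 higher (10 higher and 0 lower with its default filtering, which left 25 RNAs without an adjusted p and was therefore switched off after this was seen), a fit of only the 5 libraries of 2 h called 13, and scales over the table by equal median, equal sum, TMM or median of ratios called 2 each. The equal sum called 6 lower, among them *Nsa2* (-0.54) and *Slc25a44* (-0.64), whose values were above 0 as reported. The median log2 fold change was -0.010 with equal medians, -0.25 with equal sums, -0.066 with TMM and -0.068 with median of ratios. Scales over the table remove a shift shared by its RNAs by construction. Leaving out each library called from 2 to 13 RNAs higher and from 0 to 1 lower. These were 13 without P23 replicate 1 of 2 h, 11 without P23 replicate 1 of 0 h, 8 without LUC replicate 2 of 0 h, and 2 without P23 replicate 2 or 3 or LUC replicate 1 of 2 h, the last with 0 lower. Where 1 LUC library of 2 h was left, it was assumed to vary like the other groups. With alternatives chosen after seeing the data, P23 replicates 2 and 3 summed gave 2 higher, and limma with array weights 21 higher and, for the change from 0 h, 4 lower. Correlations of deviations from the group means ran from -0.41 to 0.45 for same-numbered libraries. Deviations within such small groups are tied to each other, so these values cannot decide whether replicate numbers pair the libraries. With the replicate block 3 were called higher and 1 lower, *Isoc2a* being lost. The cause of these differences was not tested. The change from 0 h cannot be fitted to the 5 libraries of 2 h. Low read numbers limit *Kif13a*, *Gm15559* and *Gm16153*.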
